A study of Mus musculus with 24 samples.

Results

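The genes of fatty acid oxidation and ketogenesis were followed in mouse liver with and without the clock gene Arntl (Bmal1) in hepatocytes. The set holds 33 genes, taken by symbol from a list of enzymes, carriers and regulators of the pathway, out of 35304 genes in the count table. All 33 had a row, all had a mean level above the minimum of 0.5 CPM (counts scaled to library size), and all were among the 17275 genes with enough counts to be tested. HepKO mice carried Alb::Cre_+/0 and Bmal1_fl/fl, so that the albumin promoter drives Cre recombinase in hepatocytes and other liver cells keep the gene. HepWT mice were Alb::Cre_0/0 and Bmal1_fl/fl, with both floxed alleles and no Cre. The presence of Cre and the loss of Bmal1 thus go together, and their effects cannot be told apart here. All were C57BL/6 mice of 8-12 weeks on night restricted feeding. Total liver RNA was sequenced at 6 zeitgeber times (ZT2, 6, 10, 14, 18 and 22, counted in hours from lights on). Each of the 12 groups of one genotype and time held 2 libraries. No source used here says that the libraries are separate mice, and p-values then measure only the spread between these samples.

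Liver takes up fatty acids, joins them to coenzyme A and burns them in mitochondria, which long chains enter as carnitine esters. A spiral of dehydrogenase, hydratase, second dehydrogenase and thiolase shortens the chain, electrons leave through the electron transfer flavoprotein, and the acetyl-CoA formed can become ketone bodies for other tissues. Peroxisomes shorten very long and branched chains with enzymes of their own and hand the products on as carnitine esters. Many of these genes respond to the nuclear receptor PPARA, which fatty acids activate during fasting.

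Library totals were 12997689 to 16910415 counts in 5 HepKO replicate 2 libraries (ZT6, 10, 14, 18 and 22) and 23583035 to 30677807 in the other 19. Arntl ran from 1.27 to 46.0 CPM over the 12 HepWT libraries and from 10.3 to 17.7 CPM over the 12 HepKO libraries. In CPM, its mean over 12 libraries was 23.1 ± 17.7 (SD) for HepWT and 13.7 ± 2.38 for HepKO. The log2 difference of the fit, 0.04 ± 0.07 (SE), averages over times of opposite sign, from -1.51 at ZT2 to 3.05 at ZT10, and the 24 h rhythm of Arntl differed between genotypes (adjusted p = 0.00208). The counts cover the whole gene and all liver cells. Among markers of liver cell types, 1 of 7 hepatocyte genes fell (Alb), and the median log2 difference of the 7 was -0.06. Their summed level, which includes Alb, was 75284 to 106488 CPM in HepWT and 39891 to 57487 CPM in HepKO. Of the Kupffer cell genes 8 of 8 fell (274.0 to 499.7 and 213.7 to 449.4 CPM). Of 6 endothelial markers 4 fell (326.5 to 369.6 and 297.1 to 350.5 CPM), and of 6 stellate cell markers 2 fell and 1 rose (361.6 to 530.7 and 359.2 to 466.6 CPM). Of the 5 cholangiocyte markers tested 2 rose, and the summed level of all 6 ran from 26.0 to 58.2 CPM in HepWT and from 46.9 to 158.8 CPM in HepKO. Beside these marker counts, 13.3% of all tested genes fell and 13.2% rose. Skeletal muscle markers summed to between 0 and 0.229 CPM. The part of these differences in the results below was not tested, and in bulk liver fewer cells of a type and less RNA per cell cannot be told apart.

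Most of the 33 genes were lower in HepKO. Averaged over the 6 times, 26 of the 33 genes fell, 4 rose (Pdk4, Etfa, Crot and Etfdh) and 3 did not pass the test (Acadvl, Acadm and Eci1). Over all tested genes, 13.3% fell and 13.2% rose by the same rule, which was edgeR's quasi-likelihood test at an adjusted p below 0.05. The members were chosen with earlier results of these data known, so the counts describe this set and not the whole pathway. Of 43 tested genes of oxidation and ketogenesis outside the set, 12 fell and 11 rose. The median log2 difference, HepKO minus HepWT, was -0.32 over the 33 genes and -0.01 over all tested genes. Summed over the set, the level was 13184 ± 1020 CPM (SD, n = 12 libraries) in HepWT and 9955 ± 969 CPM in HepKO, and without Fabp1, the most abundant member, it was 10081 ± 713 and 8115 ± 735 CPM. In 4 members (Fabp1, Acaa1a, Acaa2 and Hsd17b4) all 12 HepKO libraries lay below all 12 HepWT libraries, as did 0.48% of all tested genes. Without the 5 libraries of lower depth, 20 members fell and 3 rose. At a threshold of 0.01 with all libraries, 22 members fell and 3 rose. Between the HepWT replicates, 25 of the 33 genes were lower in replicate 2, as were 8547 of the 17275 tested genes. The median log2 difference between these replicates was -0.06 over the 33 genes against 0.00 over all tested genes. The plot of differences over the day orders the members by their role. The counts by role that follow stand beside the same 13.3% lower and 13.2% higher of all tested genes.

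**Figure D1:**
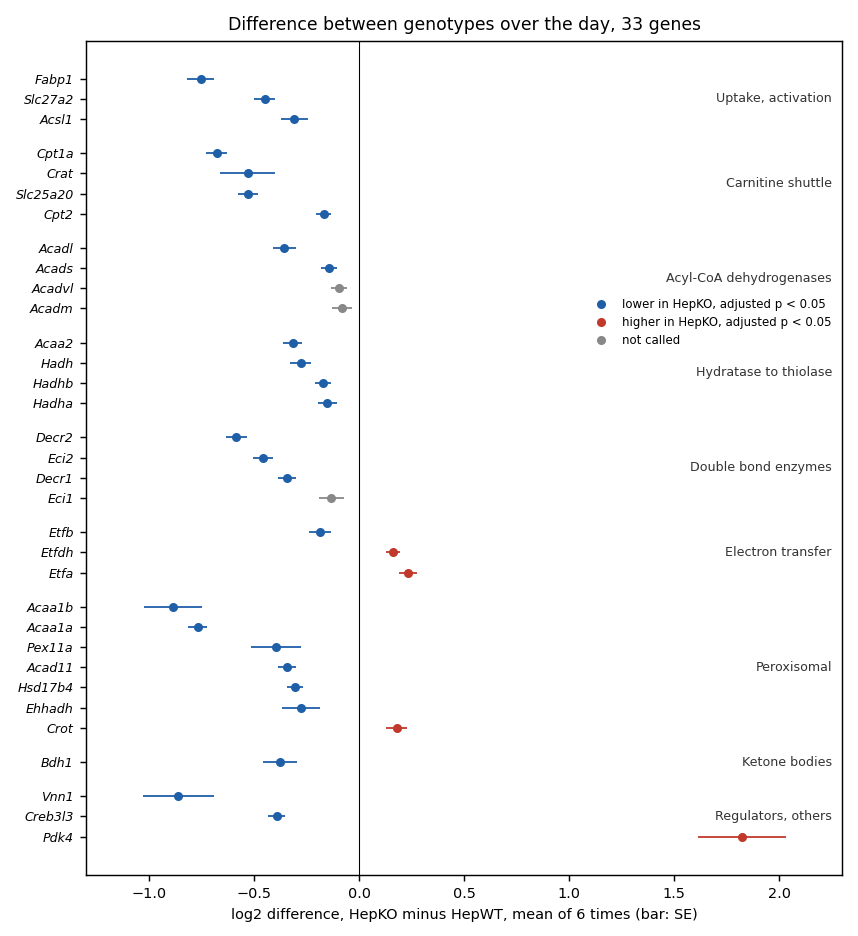
Log2 difference between genotypes (HepKO minus HepWT, mean of the 6 times) for the 33 genes, grouped by role, with the SE of the fit as a bar. Blue genes fell, red genes rose and grey genes did not pass. The differences run from -0.89 for Acaa1b to 1.82 for Pdk4, and 26 of the 33 points are blue.

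All 3 genes of uptake, binding and activation fell. Fabp1 encodes the fatty acid binding protein of the liver cytosol and lies on chromosome 6 from 71199827 to 71205023 (GRCm38). Its 12 HepWT libraries had a lowest, median and highest level of 2656, 3123 and 3858 CPM, and its HepKO libraries of 1372, 1841 and 2295 CPM. At ZT14 the HepWT libraries had 3146 and 3109.9 CPM and the HepKO libraries 1372 and 1643 CPM, the largest log2 difference of the 6 times. All 12 HepKO libraries lay below all 12 HepWT libraries. The log2 difference over the day was -0.76 ± 0.07 (SE, adjusted p = 1.58e-07), and that at ZT14 was -1.05 (adjusted p = 0.000369). Slc27a2, a transporter and very-long-chain acyl-CoA synthetase, averaged 1305 ± 274 (SD, n = 12 libraries) in HepWT and 950.2 ± 183 in HepKO, both in CPM. Its difference was -0.45 ± 0.05 on the log2 scale (adjusted p = 2.45e-06), and at each of the 6 times both HepKO libraries lay below both HepWT libraries. This separation also held for several other members, Acsl1 among them. The share of all tested genes that separate at all 6 times, in either direction, was not counted. Acsl1, the main long-chain acyl-CoA synthetase of liver, fell less (log2 difference -0.31 ± 0.07, adjusted p = 0.00181). At ZT14 it had 1741 and 2026 CPM in HepWT and 1496 and 919 CPM in HepKO, where replicate 2 stood well below replicate 1. The call at that time (-0.64) was lost without HepKO ZT14 replicate 2 (-0.33, adjusted p = 0.219) or HepWT ZT14 replicate 2 (-0.52, adjusted p = 0.147).

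The stretches before the start sites of Fabp1 and Cpt1a are shown because these genes encode the abundant carrier and the entry enzyme, both lower in HepKO, and because the stretches hold AGGTCA, the core of the element that PPARA binds as a repeat. They come from RefSeq promoter windows (GRCm38.p6), 250 bases before to 50 after each start, and end where GENCODE M21 has an exon. Capitals mark AGGTCA on the opposite strand and, in Fabp1, the repeat of AGGTCA after a spacer of 1 base with 1 letter different, which spans bases -67 to -55 from the start site. The Fabp1 stretch is chr6:71199629-71199826 and the Cpt1a stretch is chr19:3323051-3323284, both on the plus strand. The Cpt1a stretch lies within the gene as GENCODE places it, from 3322334, and precedes a RefSeq start further in.
Fabp1: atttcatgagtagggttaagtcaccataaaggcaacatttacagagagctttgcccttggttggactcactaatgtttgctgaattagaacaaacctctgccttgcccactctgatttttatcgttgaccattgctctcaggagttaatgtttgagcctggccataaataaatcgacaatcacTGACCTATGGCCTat
Cpt1a: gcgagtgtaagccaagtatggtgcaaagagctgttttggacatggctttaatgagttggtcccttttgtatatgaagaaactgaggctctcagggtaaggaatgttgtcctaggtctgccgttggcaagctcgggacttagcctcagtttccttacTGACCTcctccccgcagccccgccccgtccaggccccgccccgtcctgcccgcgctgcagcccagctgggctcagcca

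Windows were found for 28 of the 33 genes, 31 windows in all, and none for Crat, Hsd17b4, Acaa2, Vnn1 and Decr1. Both strands were searched. The E-box CACGTG, the site of the ARNTL and CLOCK pair, was in 0 of the 31 windows and in 7.15% of all 32851 windows of the table. The D-boxes TTATGTAA and TTACGTAA were in 0 of the 31, against 0.938% and 0.119% of all windows. The exact repeat (AGGTCA, any base, AGGTCA) was in 0 of the 31 (0.0396% of all windows). With at most 1 letter different it was in the Fabp1 window alone (0.554% of all), and with at most 2 letters different in those of Creb3l3, Etfa, Fabp1 and Slc25a20 (3.86% of all). These looser searches were added after the exact search had been seen. A single AGGTCA, which the repeat contains, was in the windows of Acadm, Acadvl, Cpt1a, Creb3l3, Fabp1 and Slc27a2 (16.3% of all). Genes with AGGTCA both fell (Fabp1, Cpt1a, Slc27a2 and Creb3l3) and did not pass (Acadm and Acadvl). A match describes the letters and not a bound site, and these windows leave out more distant sequence.

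All 4 genes of the carnitine shuttle fell. Cpt1a, the outer membrane acyltransferase that controls the entry of long chains into mitochondria, lies on chromosome 19 from 3322334 to 3385733. In HepWT its levels were 263 and 259 CPM at ZT2, 459 and 467 at ZT6, 564 and 696 at ZT10, 501 and 552 at ZT14, 246 and 238 at ZT18 and 237 and 253 at ZT22. In HepKO the levels at the same times were 199 and 181, 234 and 223, 435 and 378, 243 and 309, 186 and 157 and 172 and 163 CPM. Both genotypes were highest at ZT10, and at all 6 times both HepKO libraries lay below both HepWT libraries. The log2 difference was -0.68 ± 0.05 over the day (adjusted p = 2.73e-08) and was widest at ZT6 (-1.02 ± 0.13, adjusted p = 0.000174) and ZT14 (-0.93 ± 0.12, adjusted p = 0.000109). The calls at ZT6 and ZT14 held without any 1 library. That at ZT10 was lost without HepKO ZT10 replicate 2 (-0.53) or HepWT ZT10 replicate 2 (-0.46), that at ZT18 without any 1 of the 4 ZT18 libraries (-0.62 to -0.38), and that at ZT22 in 12 of the 24 fits that left out 1 library. At ZT2 the difference was -0.46 and did not pass (adjusted p = 0.0743).

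Slc25a20, the carrier that exchanges acylcarnitine for carnitine across the inner membrane, fell (log2 difference -0.53 ± 0.05, adjusted p = 2.58e-07), from 99.1 ± 12.2 to 69.01 ± 10.5 CPM (SD, n = 12 each). At ZT14 it had 112 and 109.6 CPM in HepWT and 59.2 and 67.04 CPM in HepKO. Cpt2, the inner membrane enzyme that returns the chain to coenzyme A, fell less (log2 difference -0.17 ± 0.03, adjusted p = 0.00134). Without the 5 libraries of lower depth its difference was -0.16 (adjusted p = 0.0527). Crat, which makes carnitine esters of short chains, had 39.9 ± 12.97 CPM in HepWT and 28.4 ± 10.4 CPM in HepKO and a difference of -0.53 ± 0.13 (adjusted p = 0.00554). Its HepWT replicates stood apart, with 52.2 and 27.97 CPM in replicates 1 and 2 at ZT14 and 64.9 and 38.4 CPM at ZT22. Against HepWT replicate 2 alone the difference was -0.23 (adjusted p = 0.156), and against replicate 1 alone it was -0.77. Without the 5 libraries of lower depth it was -0.50 (adjusted p = 0.0557).

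**Figure D2:**
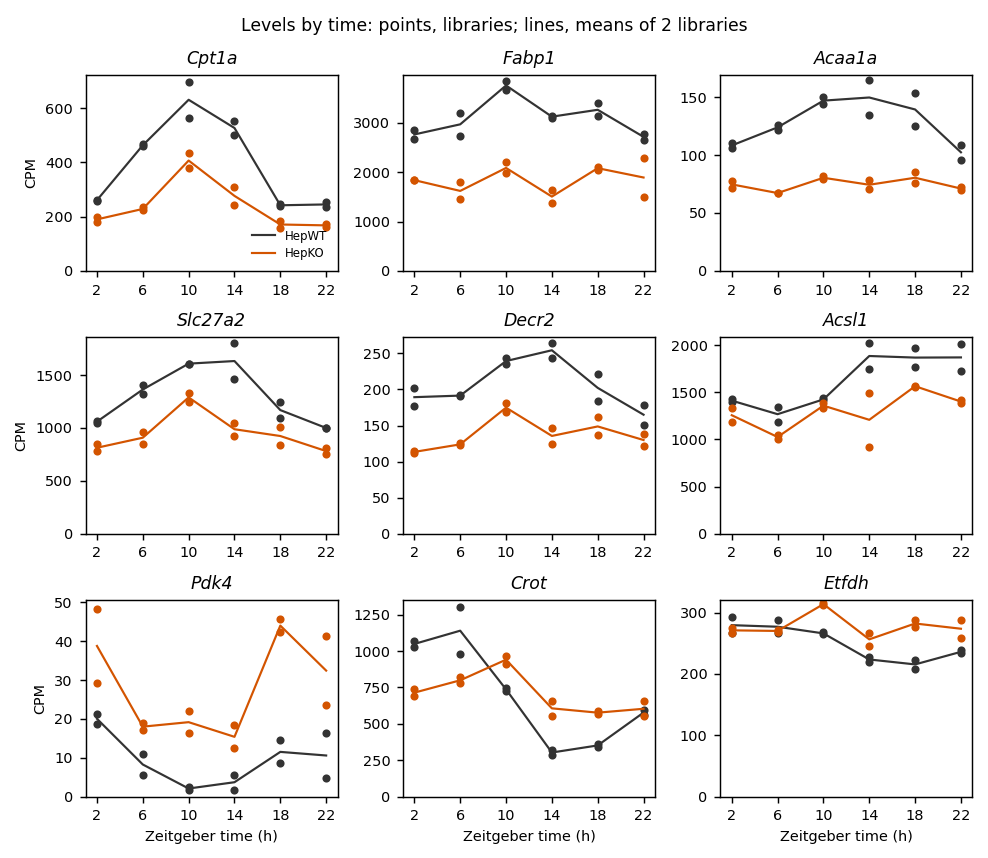
Levels in CPM (y axis, from 0) of 9 members against zeitgeber time in hours (x axis), with each library as a point and lines through the means of 2 libraries, HepWT in dark grey and HepKO in orange. Cpt1a, Fabp1, Acaa1a, Slc27a2 and Decr2 lie lower in HepKO at each time, Pdk4 lies higher, and the Crot lines cross between ZT6 and ZT10.

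The mitochondrial spiral changed less. Of the 4 acyl-CoA dehydrogenases, which open each turn for chains of different length, Acadl (long chains) and Acads (short chains) fell, with log2 differences of -0.36 ± 0.06 (adjusted p = 0.000121) and -0.14 ± 0.04 (adjusted p = 0.0063). Acadl had 112 ± 13.1 CPM in HepWT and 87.7 ± 11.6 CPM in HepKO (SD, n = 12 each), and at each time both HepKO libraries lay below both HepWT libraries. Acadvl (very long chains) did not pass at -0.10 ± 0.04 (adjusted p = 0.0696), nor did Acadm (medium chains) at -0.08 ± 0.05 (adjusted p = 0.24). Acadvl came closest to the threshold and passed without HepKO ZT22 replicate 1 (-0.12, adjusted p = 0.0361). Its exons overlap 1151 bases of Dvl2 exons on the other strand, and no source used here gives the strand setting of the counting. The Acads call was lost against HepWT replicate 2 alone (-0.13, adjusted p = 0.0592).

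The next steps all fell, with differences from -0.15 to -0.32. Acaa2, the mitochondrial 3-ketoacyl-CoA thiolase, had a lowest, median and highest level of 664, 724 and 823 CPM in HepWT and 519, 586 and 649 CPM in HepKO. The groups did not overlap, and the difference was -0.32 ± 0.04 (adjusted p = 3.6e-05). It lay between -0.36 and -0.27 at the 6 times and passed at none of them. Hadh, the short-chain hydroxyacyl-CoA dehydrogenase, fell (log2 difference -0.28 ± 0.05, adjusted p = 0.000436). Hadha and Hadhb encode the subunits of the trifunctional protein, which carries out the last 3 steps on long chains. Their RefSeq start sites lie 273 bases apart on chromosome 5, head to head, and their differences were close, at -0.15 ± 0.04 (adjusted p = 0.0158) and -0.17 ± 0.04 (adjusted p = 0.00218). The Hadha call was lost without the 5 libraries of lower depth (-0.15, adjusted p = 0.0661) and against HepWT replicate 1 alone (-0.14, adjusted p = 0.0812).

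Of the 4 enzymes that rearrange or reduce double bonds of unsaturated chains, 3 fell. Decr2, the peroxisomal dienoyl-CoA reductase, had 176 and 202 CPM at ZT2, 244 and 235 at ZT10 and 265 and 244 at ZT14 in HepWT. In HepKO it had 112 and 115, 169 and 181 and 125 and 146 CPM at these times. Its difference over the day was -0.59 ± 0.05 (adjusted p = 9.7e-08), with both HepKO libraries below both HepWT libraries at all 6 times. Eci2, an isomerase found in peroxisomes and mitochondria, fell (log2 difference -0.46 ± 0.05, adjusted p = 1.77e-06), and so did Decr1, the mitochondrial reductase (log2 difference -0.34 ± 0.04, adjusted p = 1.1e-05). Eci2 differed most at ZT14, with 219.6 and 216 CPM in HepWT and 104 and 127 CPM in HepKO. Eci1, the mitochondrial isomerase, had 99.1 ± 10.5 CPM in HepWT and 90.5 ± 8.76 CPM in HepKO (SD, n = 12 each) and did not pass (-0.13 ± 0.06, adjusted p = 0.107). It passed without HepWT ZT18 replicate 2 (-0.17, adjusted p = 0.0155) and against HepWT replicate 1 alone (-0.23, adjusted p = 0.0113), and against HepWT replicate 2 alone the difference was -0.03 (adjusted p = 0.75).

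The electron transfer genes went in both directions. Etfa and Etfb encode the subunits of the flavoprotein that takes electrons from the dehydrogenases, and Etfdh passes them to the respiratory chain. Etfa rose by 0.23 ± 0.04 (log2, adjusted p = 0.000615), from 179 ± 12.7 to 209 ± 12.1 CPM (SD, n = 12 each), and Etfdh by 0.16 ± 0.03 (adjusted p = 0.00195), from 249.5 ± 27.97 to 278 ± 20.5 CPM. Etfb fell (log2 difference -0.19 ± 0.05, adjusted p = 0.0132), from 21.9 ± 1.53 to 19.3 ± 1.56 CPM. At ZT6 the groups overlapped for Etfdh, with 266 and 287 CPM in HepWT and 268 and 272 CPM in HepKO. At ZT18 it had 223 and 208 CPM in HepWT and 289 and 276 CPM in HepKO (0.39 ± 0.08, adjusted p = 0.0118), a call that was lost without either HepKO ZT18 library (0.36 without replicate 1 and 0.42 without replicate 2) or HepWT ZT18 replicate 2 (0.33). The Etfb call was lost without the 5 libraries of lower depth (-0.19, adjusted p = 0.05002) and against HepWT replicate 2 alone (-0.18, adjusted p = 0.0592). Etfdh exons overlap 278 bases of 4930579G24Rik on the other strand, and 617 bases of Etfb exons are shared with Gm45233 on its own strand. Members of other roles also overlap exons on the other strand, among them Acsl1 (1039 bases, Gm45244), Bdh1 (533, Gm15743) and Acad11 (479, Ackr4). Slc27a2 (419, Gm26697), Crat (411, Gm16323) and Acaa1a (290, Myd88) do so too. Acad11 shares a further 163 bases with Gm28305 on its own strand.

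Of the 7 genes of peroxisomal oxidation, 6 fell and Crot rose. Acaa1a and Acaa1b encode the peroxisomal thiolases and were among the members with the largest falls. Acaa1a, on chromosome 9 from 119339676 to 119350299, had in HepWT 106 and 110.1 CPM at ZT2, 126 and 122 at ZT6, 149.9 and 144 at ZT10, 165 and 135 at ZT14, 153 and 125 at ZT18 and 109 and 95.8 at ZT22. In HepKO it had 77.7 and 71.6, 67.4 and 66.9, 79.2 and 81.5, 70.4 and 78.3, 84.98 and 75.8 and 71.99 and 70.1 CPM. The HepWT means were highest at ZT10 and ZT14, the HepKO libraries ran from 66.9 to 85.0 CPM, and the groups did not overlap. Acaa1a was the only member that passed at all 6 times, with a difference of -0.77 ± 0.04 over the day (adjusted p = 1.27e-09). The single-time calls at ZT6, ZT10, ZT14 and ZT18 held in every fit that left out 1 library. Those at ZT2 and ZT22 were lost without 1 of 3 libraries each, HepWT replicate 2 and both HepKO libraries at ZT2, and HepWT replicate 1 and both HepKO libraries at ZT22 (-0.59 to -0.44).

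Acaa1b was per length the more abundant thiolase gene, at 335 against 29.1 CPM per kilobase of exon for Acaa1a in HepWT. It had a lowest, median and highest level of 404, 678 and 979 CPM in HepWT and 216, 369.7 and 488 CPM in HepKO, and a difference of -0.89 ± 0.14 (adjusted p = 0.000121). HepWT replicate 1 exceeded replicate 2 by a wide margin at ZT14, with 979 and 423 CPM. The difference was -0.57 (adjusted p = 0.00155) against HepWT replicate 2 alone and -1.12 against replicate 1 alone. The call at ZT14 (-1.52) was lost without HepWT ZT14 replicate 1 (-0.78, adjusted p = 0.235) or HepKO ZT14 replicate 1 (-1.35, adjusted p = 0.1002). The pair share 360 stretches of 100 bases in their transcripts, 7.21% of those of Acaa1a and 19.3% of those of Acaa1b, so the split of reads between them is uncertain.

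Hsd17b4, the second enzyme of peroxisomal oxidation for branched and very long chains, had a lowest, median and highest level of 356, 395 and 455 CPM in HepWT and 296, 326 and 352 CPM in HepKO. Its difference was -0.31 ± 0.04 (adjusted p = 9.07e-06). Acad11, a dehydrogenase of long chains, fell (log2 difference -0.35 ± 0.04, adjusted p = 1.1e-05), and its difference at ZT14 was -0.60 ± 0.11 (adjusted p = 0.00137). Ehhadh, the bifunctional enzyme for straight chains, fell (log2 difference -0.28 ± 0.09, adjusted p = 0.031), a call near the threshold that was lost without any 1 of 12 of the 24 libraries (-0.22 to -0.27, adjusted p from 0.0517 to 0.0722). Pex11a, which promotes the division of peroxisomes, fell (log2 difference -0.40 ± 0.12, adjusted p = 0.0182). Against HepWT replicate 2 alone its difference was -0.11 (adjusted p = 0.412), against replicate 1 alone it was -0.62, and without the 5 libraries of lower depth it was -0.37 (adjusted p = 0.133).

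Crot, the peroxisomal octanoyltransferase that sends shortened chains out as carnitine esters, did not follow the other peroxisomal genes. It lies on chromosome 5 from 8966033 to 8997324. In HepWT it had 1028 and 1069 CPM at ZT2, 980.2 and 1299 at ZT6, 727 and 746 at ZT10, 318 and 287 at ZT14, 361 and 341 at ZT18 and 562 and 592 at ZT22, high in the first part of the light phase and lowest at ZT14. In HepKO the levels at these times were 739.6 and 688, 777 and 821, 968 and 913, 557 and 655, 567 and 586 and 656 and 550.1 CPM. HepKO was thus lower at ZT2 (-0.55 ± 0.12, adjusted p = 0.0265) and ZT6 (-0.51 ± 0.12, adjusted p = 0.024) and higher at ZT14 (1.00 ± 0.12, adjusted p = 4.97e-05) and ZT18 (0.71 ± 0.12, adjusted p = 0.00248). At ZT10 and ZT22 it did not pass (0.35 and 0.06). By edgeR's quasi-likelihood test, Crot was the only 1 of the 33 genes whose genotype difference changed with time (adjusted p = 0.000158), which 1.12% of all tested genes did, and DESeq2 called 4 members here. The mean difference over the day was 0.18 ± 0.05 (adjusted p = 0.0139) and averages over these opposite signs. That mean was not called without the 5 libraries of lower depth (0.18, adjusted p = 0.0810) or against HepWT replicate 2 alone (0.15, adjusted p = 0.0572). The ZT14 call held without any 1 library. The ZT2 and ZT6 calls were each lost without 1 of several libraries: any of the 4 ZT2 libraries (-0.61 to -0.50), and HepWT ZT6 replicate 2 (-0.29, adjusted p = 0.267) or either HepKO ZT6 library. The ZT18 call was lost without HepWT ZT18 replicate 2 (0.66, adjusted p = 0.0519).

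Bdh1, which interconverts the ketone bodies acetoacetate and 3-hydroxybutyrate, had 173 ± 33.8 CPM in HepWT and 132 ± 20.1 CPM in HepKO (SD, n = 12 each) and fell (log2 difference -0.38 ± 0.08, adjusted p = 0.0018). Against HepWT replicate 1 alone its difference was -0.24 (adjusted p = 0.0925), and against replicate 2 alone -0.51. Creb3l3, a membrane-bound transcription factor of the fasting liver, fell (log2 difference -0.39 ± 0.04, adjusted p = 2.29e-06). Its fall was widest at ZT6, with 283 and 290.4 CPM in HepWT and 178 and 149.6 CPM in HepKO (-0.81 ± 0.11, adjusted p = 0.000292). Vnn1, a pantetheinase, was listed with Creb3l3 and Pdk4 under PPARA-responsive regulators and others, of which Pdk4 rose. Vnn1 fell (log2 difference -0.86 ± 0.17, adjusted p = 0.00096). It had a lowest, median and highest level of 21.998, 34.5 and 59.4 CPM in HepWT and 10.7, 15.9 and 37.97 CPM in HepKO. Its levels overlapped between genotypes, and its ZT14 call was lost without HepKO ZT14 replicate 1 (-1.03) or HepWT ZT14 replicate 1 (-1.05).

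Pdk4 rose most of all members. It encodes a kinase that switches off pyruvate dehydrogenase and so spares glucose when fat is burned, and it lies on chromosome 6 from 5483351 to 5496309. In HepWT it had 18.7 and 21.3 CPM at ZT2, 5.54 and 10.9 at ZT6, 2.5 and 1.63 at ZT10, 5.64 and 1.73 at ZT14, 14.4 and 8.54 at ZT18 and 16.4 and 4.75 at ZT22. In HepKO it had 29.3 and 48.2, 17.02 and 18.97, 21.9 and 16.4, 12.5 and 18.3, 45.8 and 42.3 and 41.3 and 23.5 CPM. Both HepKO libraries lay above both HepWT libraries at each of the 6 times. The log2 difference was 1.82 ± 0.21 over the day (adjusted p = 4.92e-06, 3.54-fold) and 3.22 ± 0.58 at ZT10 (adjusted p = 0.00169). The ZT10 call held without any 1 library. Those at ZT14 (2.06) and ZT18 (1.94) were lost without HepKO ZT14 replicate 2 (1.78), HepWT ZT14 replicate 2 (1.44) or any 1 of the 4 ZT18 libraries (1.598 to 2.36).

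Across the 6 times the lower levels were called most often at ZT14. At ZT14, 15 of the 33 genes were lower, against 3.04% of all tested genes. The members lower were 5 at ZT2 (0.915% of all tested genes), 9 at ZT6 (2.41%), 8 at ZT10 (3.98%), 5 at ZT18 (1.7%) and 2 at ZT22 (0.509%). The 2 at ZT22 were Acaa1a and Cpt1a. The median log2 difference of the 33 genes was -0.27 at ZT2, -0.39 at ZT6, -0.29 at ZT10, -0.40 at ZT14, -0.26 at ZT18 and -0.24 at ZT22. Higher at single times were Pdk4 at ZT10 (3.73% of all tested genes were higher), Pdk4 and Crot at ZT14 (4.6%), and Pdk4, Crot and Etfdh at ZT18 (2.08%). Of these 50 calls at single times, 15 held in each of the 24 fits that left out 1 library, 9 of them at ZT14. Without HepWT ZT18 replicate 2, 3 of the 6 higher calls passed. Without the 5 libraries of lower depth, which leaves 1 HepKO library at 5 of the times, 17 calls were lower and 2 higher. In edgeR's quasi-likelihood test with the filter on low counts, the difference changed with time for Crot alone, while DESeq2 called 4 members and the fit with no filter 8. The order of the times is a description.

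**Figure D3:**
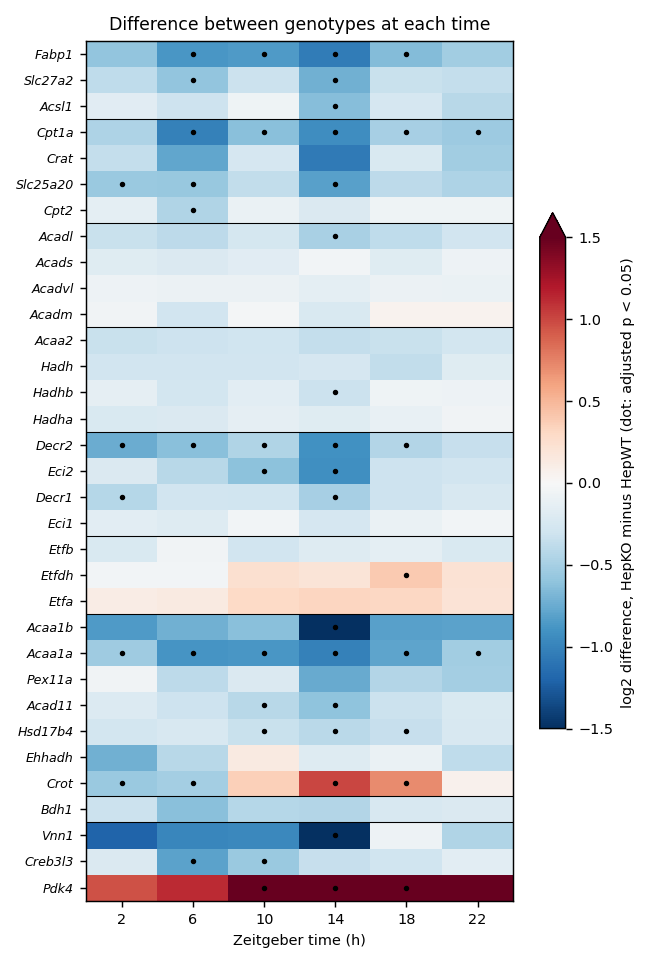
Log2 difference, HepKO minus HepWT, of the 33 genes (rows, grouped by role) at the 6 zeitgeber times (columns), with blue for lower, red for higher and a dot where the adjusted p was below 0.05. The colour scale ends at 1.5, which Pdk4 exceeds with 3.22 at ZT10. The ZT14 column holds 15 dots on blue and 2 on red.

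Fewer members had a called 24 h rhythm in HepKO. A cosine and sine of 24 h passed for 14 of the 33 genes in HepWT (30.3% of all tested genes) and for 5 in HepKO (14.3%). Cpt1a, Eci2, Slc27a2 and Crot passed in both, and Cpt2 passed in HepKO only. A call in 1 genotype and not in the other does not show that the rhythms differ. The test of the difference itself passed for Crot alone (adjusted p = 6.65e-05; 1.5% of all tested genes). The amplitude (log2, peak above the fitted mean) had a median of 0.19 in HepWT and 0.08 in HepKO over the 33 genes, and of 0.22 and 0.19 over all tested genes. It was lower in HepKO for 28 of the 33 genes and for 10314 of the 17275, as estimates without a test.

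Crot had an amplitude of 1.01 ± 0.06 (SE) with a peak at ZT 4.4 ± 0.245 h in HepWT, and of 0.33 ± 0.06 with a peak at ZT 7.45 ± 0.743 h in HepKO. Cpt1a had amplitudes of 0.77 ± 0.08 and 0.59 ± 0.08 and peaks at ZT 10.1 ± 0.393 h and ZT 10.2 ± 0.519 h. Its rhythms were not shown to differ (adjusted p = 0.691), and neither were those of Eci2 (0.61 ± 0.06 and 0.33 ± 0.06, adjusted p = 0.219) and Slc27a2 (0.39 ± 0.05 and 0.30 ± 0.05, adjusted p = 0.849). Pdk4 had the largest amplitude in HepWT, 1.38 ± 0.27, with a peak at ZT 23.6 ± 0.663 h (adjusted p = 0.00179), and in HepKO 0.70 ± 0.24 (adjusted p = 0.112). Most other HepWT peaks fell between ZT8 and ZT14. Bdh1 peaked at ZT 8.49 ± 0.945 h, Creb3l3 at ZT 9.24 ± 1.08 h, Acaa1a at ZT 12.6 ± 0.622 h and Pex11a at ZT 13.999 ± 0.764 h. Outside that span, Etfdh peaked at ZT 5.2 ± 0.725 h and Acsl1 at ZT 17.9 ± 0.812 h. The HepWT calls of Acadl and Creb3l3 and the HepKO call of Cpt2 were lost in 14, 5 and 9 of the 24 fits that left out 1 library. The number of HepKO rhythms went from 5 to 8 without HepKO ZT14 replicate 1 and to 8 by DESeq2. Against HepWT replicate 1 alone 7 HepWT rhythms passed, and against replicate 2 alone 9. Without the 5 libraries of lower depth 1 HepKO rhythm passed, that of Cpt1a.

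**Figure D4:**
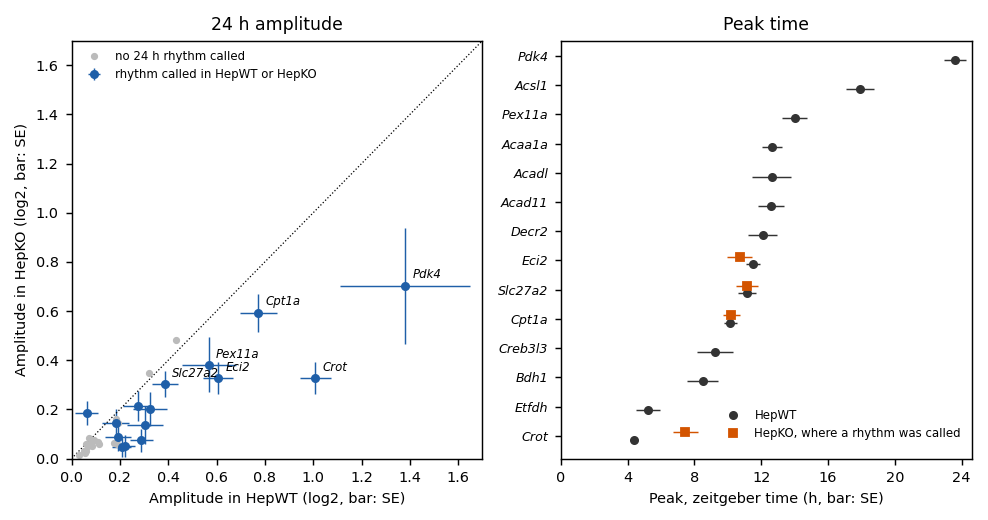
Left, the 24 h amplitude (log2) in HepKO against that in HepWT for the 33 genes, with SE bars for genes with a called rhythm and a dotted line of equal amplitude. Right, peak times in hours of the 14 genes rhythmic in HepWT (dark circles) and of those also called in HepKO (orange squares), with SE bars. Crot lies far below the line, at 1.01 ± 0.06 against 0.33 ± 0.06, while its peak moves from ZT 4.4 h to ZT 7.45 h.

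Mitochondrial and peroxisomal steps were compared over 16 and 6 members. The mitochondrial list runs from Cpt1a through the spiral to the electron transfer genes, and the peroxisomal list holds Acaa1a, Acaa1b, Ehhadh, Hsd17b4, Decr2 and Crot. Genes of several or other sites, such as Eci2, Acad11 and Pex11a, were in neither. Over all tested genes, 13.3% fell and 13.2% rose, with a median log2 difference of -0.01. Of the mitochondrial genes 11 fell, 2 rose and 3 did not pass, with a median log2 difference of -0.17. Of the peroxisomal genes 5 fell and 1 rose, with a median of -0.45. Their summed levels were 3676 ± 278 (SD, n = 12 libraries) in HepWT and 3172 ± 251 in HepKO for the mitochondrial genes, in CPM, and 2370.0 ± 356 and 1837 ± 247 CPM for the peroxisomal genes. The mean log2 CPM of the mitochondrial genes minus that of the peroxisomal genes had a lowest, median and highest value of -1.07, -0.90 and -0.53 over the HepWT libraries and of -0.76, -0.67 and -0.47 over the HepKO libraries. These ranges overlap. The highest HepWT value was that of ZT14 replicate 2, whose replicate 1 had -0.85. The largest mitochondrial falls (Cpt1a and Slc25a20) were, at -0.68 and -0.53, of the size of the peroxisomal ones. No test was made between the lists, which were chosen with results of these data known. Over the alternative fits the medians ran from -0.20 to -0.16 and from -0.49 to -0.40.

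**Figure D5:**
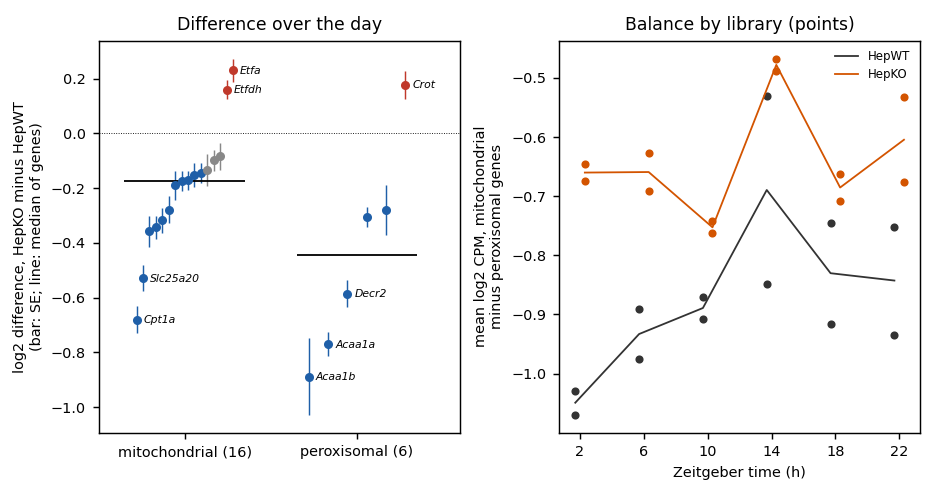
Left, log2 differences over the day of the 16 mitochondrial and 6 peroxisomal genes with SE bars, blue where they fell, red where they rose and grey where they did not pass, and the median of each list as a line (-0.17 and -0.45). Right, the mean log2 CPM of the mitochondrial genes minus that of the peroxisomal genes in each library against zeitgeber time, with lines through the means of 2 libraries, HepWT in dark grey and HepKO in orange. The HepKO means lie above the HepWT means at each time.

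Other genes of the pathway went in both directions. For comparison with the counts below, 13.3% of all tested genes fell and 13.2% rose. Of 43 tested genes of oxidation and ketogenesis outside the set, 12 fell and 11 rose, with a median log2 difference of -0.00. Among those that fell were Abcd2, a peroxisomal importer of very long chains (-2.53 ± 0.37, 26.1 ± 16.9 to 5.16 ± 6.13 CPM), Slc16a7, a monocarboxylate transporter (-1.48 ± 0.08), and Acacb, which makes the malonyl-CoA that inhibits CPT1 (-0.55 ± 0.11). The largest rises were of Hacl1 (0.45 ± 0.08), which cleaves 2-hydroxy acids, Slc16a1 (0.42 ± 0.06), a monocarboxylate transporter, Scp2 (0.35 ± 0.05), the thiolase of branched chains, and Acox3 (0.27 ± 0.08), an oxidase of branched chains.

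Of 27 genes of transcription and signalling around the pathway, 10 fell and 3 rose (median -0.12). Ppara had 152 ± 49.3 CPM in HepWT and 85.4 ± 17.2 CPM in HepKO (SD, n = 12 each) and fell (log2 difference -0.79 ± 0.08, adjusted p = 7.97e-07). The clock repressors Nr1d2 (-1.74 ± 0.07) and Nr1d1 (-1.70 ± 0.19) and the clock output factor Dbp (-1.09 ± 0.09) fell further. Ppard, a relative of PPARA, rose by 1.37 ± 0.08, from 8.32 ± 6.7 to 17.01 ± 5.41 CPM, followed by Nfil3 (0.37 ± 0.09), a repressor at D-boxes, and the coactivator Ncoa1 (0.16 ± 0.04). These values are means over the day. For 6 of the 27 genes the difference changed with time (1.12% of all tested genes), and for 3 the rhythms differed (1.5%). Of 19 tested PPARA targets outside oxidation, 13 fell (median -0.42). The largest falls were of the aldehyde dehydrogenase Aldh3a2 (-1.34 ± 0.14), the omega-hydroxylase Cyp4a10 (-1.34 ± 0.35), the lipid droplet gene Cidec (-0.93 ± 0.32) and Angptl4 (-0.92 ± 0.18), an inhibitor of lipoprotein lipase. Of 16 genes of peroxisome assembly, among which catalase (Cat) was counted, 3 fell and 2 rose (median -0.04). Among them Pex26 fell most (-0.39 ± 0.08) and Pex7 rose most (0.16 ± 0.04). The shares of all tested genes were 13.3% lower and 13.2% higher.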

How the data were processed

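Total RNA of liver was depleted of ribosomal RNA and sequenced from a stranded kit, per the labels' protocols. Reads were aligned with STAR 2.4.0i to mm10, per the submitters' processing notes, and no source used here gives the counting tool, annotation or strand setting. The deposited values are raw counts per gene, 12997689 to 30677807 per library, and all 24 columns were matched to samples by name. Counts of the 17275 genes kept by filterByExpr (minimum count 10, minimum total 15) were scaled by TMM and fitted with edgeR 4.0.16 (R 4.3.3) by the quasi-likelihood test, with a mean for each of the 12 groups (12 residual degrees of freedom), or with a cosine and sine of 24 h within each genotype (18 residual degrees of freedom). P-values were adjusted by Benjamini-Hochberg over all tested genes, with a threshold of 0.05, and CPM used TMM library sizes. Fits were tested on simulated data. limma 3.58.1 (voom), DESeq2 1.42.0, other filters and scalings, single HepWT replicates, a block for replicate number and leaving out each library served as alternatives.

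All 33 genes were named by symbol, with values per library for the largest differences of each role, the largest change with time and the largest amplitudes. Of other lists, up to 4 called genes per direction were named, and some genes of these lists are not reported here. The members and lists were chosen with earlier results of these data known. Hepatocyte markers were 7 of 8 listed, since Tf had no row. Positions come from GENCODE M21 (GRCm38).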

Additional observations from a re-analysis of the deposited data

Results flagged for a closer look

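The genotype difference of Crot changed between the 6 times (edgeR's quasi-likelihood test, adjusted p = 0.000158), and its 24 h rhythm differed between HepWT and HepKO (adjusted p = 6.65e-05). Both were tested as terms of the fit. Over the alternatives the adjusted p reached at most 0.0404 for the change with time and 0.0121 for the rhythm, both without the 5 HepKO libraries of lower depth.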

How the results depend on the processing

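Of the 33 differences over the day under 35 alternatives, 1118 values kept their direction and side of the threshold, 32 lost the call, 5 gained it and 0 reversed. Leaving out each library gave 25 to 27 members lower over the day, 4 to 4 higher, 32 to 47 lower and 3 to 7 higher calls at single times, 1 to 1 members whose difference changed with time, 12 to 16 rhythms in HepWT, 4 to 8 in HepKO and 1 to 1 rhythm that differed. The 3 higher calls came without HepWT ZT18 replicate 2, and the 8 HepKO rhythms without HepKO ZT14 replicate 1. DESeq2 called 4 changes with time and 8 HepKO rhythms. With no filter on low counts, 74 lower calls at single times (44 with the filter), 8 changes with time, 11 HepKO rhythms and 5 differing rhythms passed. Without the 5 libraries of lower depth, 17 lower and 2 higher calls at single times and 1 HepKO rhythm passed. With HepWT replicate 1 alone 7 HepWT rhythms passed, and with replicate 2 alone 9. At a threshold of 0.01, 24 lower and 3 higher calls at single times passed. The causes were not tested, apart from the fewer libraries or the stricter threshold that these settings hold.

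Deviations of same-numbered libraries correlated from -0.19 to 0.38 over 66 pairs of groups (median 0.009), over 0.1 in 14. Among these, 11 of the 15 pairs of HepWT groups were over 0.1 (median 0.20), and 1 of the 15 pairs of HepKO groups (median -0.008), so the HepWT libraries of one number deviated together while the numbers were not taken to pair samples across genotypes. The main fit treats the libraries as independent and makes no allowance for this shared deviation in HepWT. With a replicate block 26 members were lower and 4 higher over the day, 44 and 6 calls passed at single times, and 15 rhythms passed in HepWT and 7 in HepKO. The block is a term common to both genotypes. It cannot take up a deviation of HepWT alone, so these counts do not show how that deviation bears on the calls.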
